A study of Mus musculus with 14 samples.

Results

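The 10 genes described here encode proteins by which neutrophils are known: the G-CSF receptor Csf3r, the calcium-binding alarmins S100a8 and S100a9, the primary granule enzymes Mpo and Elane, the secondary granule proteins Ngp, Camp and Ltf, the neutrophil collagenase Mmp8 and the gelatinase Mmp9. They were picked by name, as the entries of the deposited count table that carry these symbols, and are 10 of the 25212 genes listed there. Liver RNA of 14 male C57BL/6 mice was sequenced, with 1 library per liver. Obesity was induced in every mouse with a high-fat diet before random allocation, and the diet went on until the livers were taken, 8 weeks after surgery by the labels, and no genetic change is named for any group. The 5 mice of the DIO group (diet-induced obesity) had no operation. The 4 mice of the GB-IL group had the gallbladder joined to the ileum with the common bile duct tied off, so that bile entered the gut near its end. The 5 mice of the RYGB group had a Roux-en-Y gastric bypass. None of the libraries used here came from a sham-operated mouse, so an effect of having been operated on and an effect of the rerouted bile or food cannot be told apart. Each library was made from liver tissue, which holds hepatocytes, bile ducts, resident macrophages and blood in unknown proportions.

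Neutrophils form in bone marrow, where G-CSF acts through its receptor on granulocyte precursors. Primary granule proteins such as myeloperoxidase and neutrophil elastase are made first, at the promyelocyte stage, secondary granule proteins such as lactoferrin, the cathelicidin Camp and Ngp follow in myelocytes and metamyelocytes, and gelatinase comes later, so that the transcripts a neutrophil carries change with its maturity. Transcripts of S100a8, S100a9 and Csf3r stay abundant in mature cells, and in liver neutrophils are sparse at rest and are known to gather in injury, infection and bile duct obstruction.

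The promoters of 4 of the genes are shown as examples of 2 sets that lie near each other and followed each other across the livers, S100a8 and S100a9 of the alarmins and Ngp and Ltf of the secondary granule genes. Camp, on the same chromosome as Ngp and Ltf, followed them too (Pearson r = 0.95 and 0.98 over 14 livers) and its window is not printed. Of the 10 genes, 9 were matched by symbol in RefSeq's promoter windows of GRCm38.p6, the patch release of mm10. Each line below gives the 250 bases before the RefSeq start, 5′ to 3′ on the gene's strand, S100a8 from chr3:90668821-90669070 (plus strand), S100a9 from chr3:90695722-90695971 (minus strand), Ngp from chr9:110419558-110419807 (plus strand) and Ltf from chr9:111019042-111019291 (plus strand), with matches to 3 motifs in capitals.
S100a8: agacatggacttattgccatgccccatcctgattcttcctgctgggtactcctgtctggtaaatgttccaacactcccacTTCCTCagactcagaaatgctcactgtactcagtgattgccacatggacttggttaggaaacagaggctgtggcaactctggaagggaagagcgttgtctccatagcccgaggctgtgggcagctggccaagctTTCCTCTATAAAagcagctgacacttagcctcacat
S100a9: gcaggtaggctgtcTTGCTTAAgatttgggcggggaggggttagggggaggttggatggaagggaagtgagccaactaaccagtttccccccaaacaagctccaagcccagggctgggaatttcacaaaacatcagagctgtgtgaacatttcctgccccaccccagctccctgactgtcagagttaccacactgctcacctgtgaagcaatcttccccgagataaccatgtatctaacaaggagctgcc
Ngp: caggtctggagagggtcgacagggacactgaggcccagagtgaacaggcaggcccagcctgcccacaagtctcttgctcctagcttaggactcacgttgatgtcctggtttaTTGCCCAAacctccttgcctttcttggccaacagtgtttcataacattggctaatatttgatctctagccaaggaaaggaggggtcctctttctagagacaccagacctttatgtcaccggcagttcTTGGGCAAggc
Ltf: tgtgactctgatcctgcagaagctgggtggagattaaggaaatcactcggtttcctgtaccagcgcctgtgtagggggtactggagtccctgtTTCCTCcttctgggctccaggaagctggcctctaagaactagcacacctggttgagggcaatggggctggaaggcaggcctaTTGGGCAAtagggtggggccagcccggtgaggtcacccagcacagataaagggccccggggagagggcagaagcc

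The motifs were the C/EBP letters TTGCNNAA, the PU.1 letters GAGGAA and the TATA letters TATAAA, searched on both strands, so that TTCCTC is a PU.1 match read on the other strand. The C/EBP family and PU.1, the product of Spi1, are transcription factors known in granulocyte development. The C/EBP letters were in the windows of 4 of the 9 genes (S100a9, Ngp, Ltf and Mmp8) against 9.56% of all 32851 windows of this length. The PU.1 letters were in 6 of the 9 (S100a8, Csf3r, Mpo, Elane, Ltf and Mmp8) against 23.3% of all windows. The TATA letters were in 1 of the 9 against 12.4%, in the S100a8 window 30 to 25 bases before the start, where they directly follow a PU.1 match and the run of capitals therefore holds both. Ngp had 2 C/EBP matches, the nearer one 11 to 4 bases before its start. The GENCODE M21 models of S100a8, Ngp and Ltf begin inside these windows, so the start depends on the annotation. A match is a description of these letters only.

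Total counts ranged from 18440676 to 21473005 in the DIO livers, from 19231679 to 26131278 in the GB-IL livers and from 18223135 to 28656631 in the RYGB livers. On the first principal component of all tested genes, which held 48.5% of the variance, GB-IL liver 4 lay at -35.3, inside the DIO range of -45.7 to -21.9, while GB-IL livers 1, 2 and 3 lay at 134, 106 and 20.1. GB-IL liver 1 also held pancreatic transcripts that the other livers nearly lacked, as described below. The main differences are given again below with these livers left out.

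In 3 of the 4 GB-IL livers each of the 7 genes with enough counts for a test stood above every DIO liver, a pattern that 14.9% of all tested genes showed. The 3 genes too low to test also did, but by 1 count against 1 for Camp in GB-IL liver 1 and by 4 counts against 3 for Mpo in GB-IL liver 4. The 3 livers were GB-IL livers 1, 2 and 3 for 8 of the genes and livers 2, 3 and 4 for Mpo and Elane, and for no gene did all 4 livers clear the DIO group (2.67% of all tested genes did). Of the 7 tested genes, S100a8, S100a9, Mmp8 and Mmp9 rose in GB-IL against DIO livers, by 34.3-, 36.3-, 38.9- and 9.11-fold, that is 4 of 7 against the 3.15% of all 14252 tested genes that rose. None fell (0.112% of all genes did). Csf3r, Ngp and Ltf had higher means in GB-IL livers but did not pass the test. All 7 had a log2 fold change above 0 in each comparison, as had 53.1% of all genes in GB-IL against DIO, 51.5% in RYGB against DIO and 52.5% in GB-IL against RYGB livers. None of the 7 passed the edgeR test in RYGB against DIO livers or in GB-IL against RYGB livers, where 0.0% of all genes rose. Mmp8, Ngp and Ltf passed the filter on low counts only through GB-IL livers and RYGB liver 5, so a difference was built into their being tested. Leaving them aside, 3 of 4 genes rose. In RNA of whole tissue, more neutrophils, more of a transcript per neutrophil and more of it from other cells cannot be told apart. The plot of the level of each gene in each liver shows the 10 genes side by side.

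**Figure D1:**
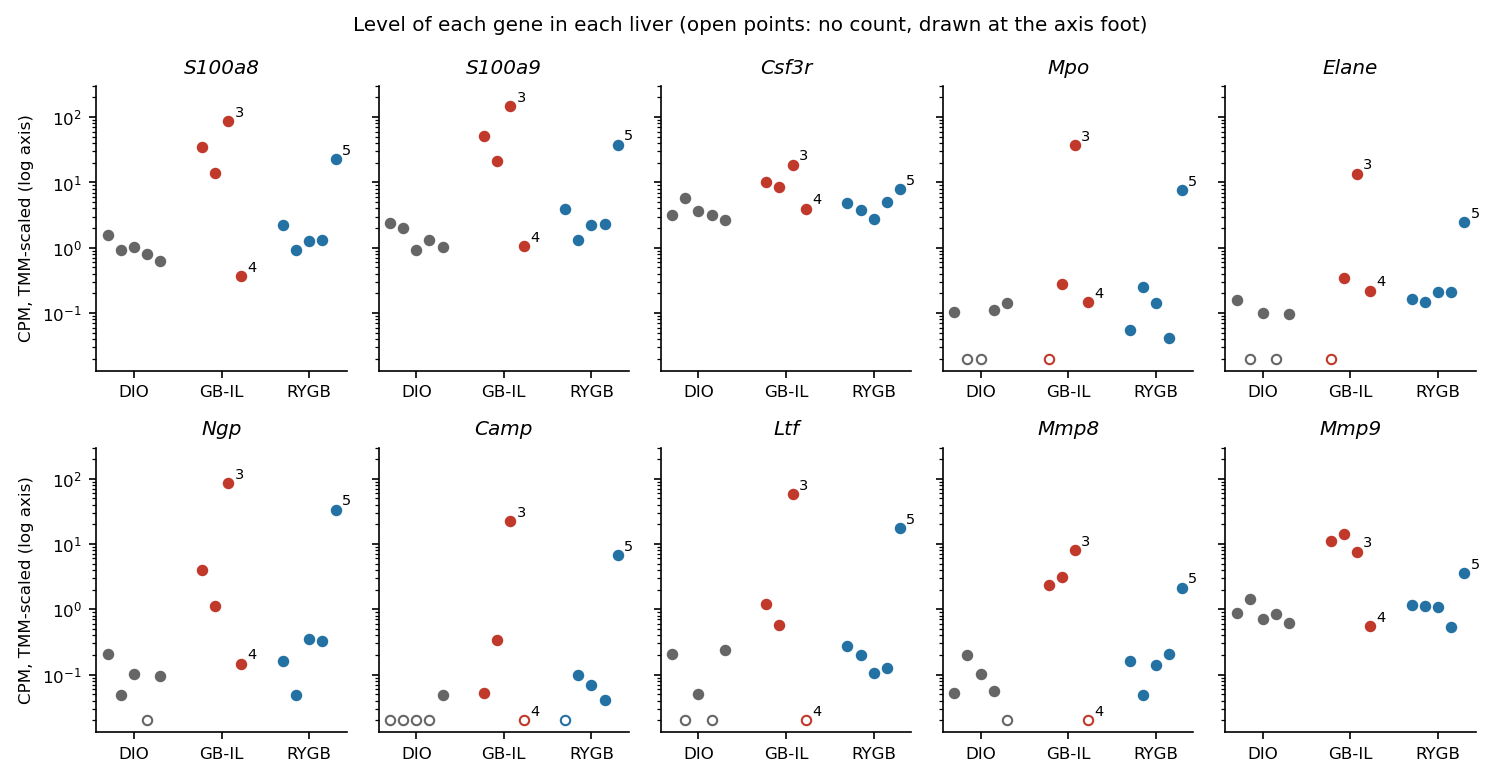
Level of each of the 10 genes in each liver, in TMM-scaled CPM, on a log axis. Points are single livers of the DIO, GB-IL and RYGB groups, open points at the foot of the axis are livers with no count, and the numbers mark GB-IL livers 3 and 4 and RYGB liver 5. GB-IL liver 3 was highest for 9 of the 10 genes, and GB-IL liver 4 lay above every DIO liver for Mpo and Elane, below every DIO liver for S100a8 and Mmp9 and otherwise among them.

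Csf3r (ENSMUSG00000028859, GRCm38 chromosome 4, 126024550 to 126044440) encodes the receptor through which G-CSF drives granulocyte production and release. Levels are given as CPM, the counts of a gene scaled by TMM to a common library total. In the DIO livers 1 to 5 Csf3r was at 3.14, 5.81, 3.66, 3.23 and 2.64 CPM. In the GB-IL livers 1 to 4 it was at 10.2, 8.47, 18.8 and 3.98 CPM. The 3 upper GB-IL livers stood above all DIO livers and the fourth stood among them. In the RYGB livers 1 to 5 it was at 4.87, 3.85, 2.71, 5.05 and 7.82 CPM, and only RYGB liver 5 was above the DIO range. The GB-IL mean of 10.4 ± 6.22 CPM (SD, n = 4) was 2.81-fold the DIO mean of 3.70 ± 1.23 CPM (SD, n = 5), with a log2 fold change of 1.49 ± 0.40 (SE) and an adjusted p of 0.0536 (edgeR quasi-likelihood test, Benjamini-Hochberg), the smallest fold change of the 7 tested genes.

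S100a8 (ENSMUSG00000056054, chromosome 3, 90668978 to 90670035) and S100a9 (ENSMUSG00000056071, chromosome 3, 90692632 to 90695721) lie near each other on opposite strands, and their proteins pair as calprotectin, which binds calcium and zinc and is released as an alarmin. S100a8 was at 1.57, 0.935, 1.02, 0.792 and 0.625 CPM in the DIO livers and at 34.8, 14.2, 86.8 and 0.369 CPM in the GB-IL livers. GB-IL livers 1, 2 and 3 stood above every DIO liver and GB-IL liver 4 below every DIO liver. The RYGB livers had S100a8 at 2.24, 0.937, 1.27, 1.32 and 22.9 CPM, so RYGB liver 5 was 10.2 times the next highest. S100a8 rose in GB-IL against DIO by a log2 fold change of 5.10 ± 1.22 (SE, adjusted p = 0.0365, edgeR quasi-likelihood test).

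S100a9 was at 2.41, 2.02, 0.916, 1.30 and 1.01 CPM in the DIO livers and at 51.7, 21.3, 149 and 1.07 CPM in the GB-IL livers. The order of the GB-IL livers was that of S100a8, with liver 4 inside the DIO range. RYGB livers had it at 3.88, 1.33, 2.25, 2.32 and 38.0 CPM, again with liver 5 far above the rest. S100a9 rose in GB-IL against DIO by a log2 fold change of 5.18 ± 1.21 (SE, adjusted p = 0.0343, edgeR quasi-likelihood test). Over the livers S100a8 counts ran from 0.345 times S100a9 counts (GB-IL liver 4, 10 and 29 counts) to 1.11 times (DIO liver 3, 20 and 18 counts). The log2 ratio of S100a8 to S100a9 counts averaged -0.58 ± 0.45 in DIO, -0.86 ± 0.43 in GB-IL and -0.73 ± 0.13 in RYGB livers (SD, n = 5, 4 and 5). The ratio did not differ between GB-IL and DIO (exact two-sided permutation test, p = 0.444), RYGB and DIO (p = 0.627) or GB-IL and RYGB livers (p = 0.698) beyond the spread between livers, and each p was 0.698 after adjustment over the 3 comparisons. In GB-IL livers 1, 2 and 3 and RYGB liver 5, where the counts were high, S100a8 stood at 0.674, 0.666, 0.584 and 0.603 times S100a9.

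Mpo (ENSMUSG00000009350, chromosome 11, 87793581 to 87804413) encodes myeloperoxidase, which makes hypochlorous acid, and Elane (ENSMUSG00000020125, chromosome 10, 79886247 to 79888215) encodes neutrophil elastase. Both are primary granule enzymes and were too low to test, so counts are given. Mpo had 2, 0, 0, 2 and 3 counts in the DIO livers and 0, 5, 886 and 4 counts in the GB-IL livers. GB-IL liver 3 alone held 99.0% of the GB-IL counts. RYGB livers had 1, 5, 4, 1 and 222 Mpo counts, of which 95.3% were in liver 5. A count of 0, as in GB-IL liver 1, allows up to 3 counts, or 0.158 CPM there. The gene overlaps an antisense gene, Gm11505, and the strand setting of the counting is not given in the sources used here.

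Elane had 3, 0, 2, 0 and 2 counts in the DIO livers and 0, 6, 322 and 6 counts in the GB-IL livers, with 96.4% of the latter in GB-IL liver 3. RYGB livers had 3, 3, 6, 5 and 71 counts, and 4 of these 5 livers stood above every DIO liver on the CPM scale. The summed Mpo rate was 143 times higher in GB-IL than in DIO livers (Clopper-Pearson 95% interval 69.0 to 356, counting error only), and the exact two-sided permutation test over livers gave p = 0.143. For Elane the ratio was 53.2 (25.6 to 133, exact permutation p = 0.127). Without GB-IL liver 3 the ratios to DIO were 1.96 for Mpo (exact permutation p = 0.321) and 2.62 for Elane (exact permutation p = 0.286). Against RYGB livers the GB-IL ratio was 5.27 for Mpo (exact permutation p = 0.571) and 5.21 for Elane (exact permutation p = 0.619). In RYGB against DIO livers the ratio was 27.1 (12.9 to 68.0) for Mpo, with exact permutation p = 0.230, and 10.2 (4.76 to 26.2) for Elane, with exact permutation p = 0.0159. The Elane p is 1 of 9 such tests on the 3 low genes and is unadjusted. Without RYGB liver 5, Elane stood at 2.60 times DIO with exact permutation p = 0.0317, on counts of 3 to 6 against 0 to 3 per liver.

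Ngp (ENSMUSG00000032484, chromosome 9, 110419747 to 110423012) encodes neutrophilic granule protein, a cystatin-like protein of secondary granules. It had 4, 1, 2, 0 and 2 counts in the DIO livers and 76, 20, 2033 and 4 counts in the GB-IL livers. GB-IL liver 3 was 21.6 times GB-IL liver 1 in CPM, and liver 4 was inside the DIO range. In the RYGB livers Ngp had 3, 1, 10, 8 and 973 counts, and liver 5 was 95.7 times the next. The log2 fold change of GB-IL against DIO was 7.87 ± 2.25 (SE, adjusted p = 0.0677, edgeR quasi-likelihood test), the one with the largest error of the tested genes. Without GB-IL liver 3 it was 4.15 ± 1.95 (adjusted p = 0.196, same test).

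Ltf (ENSMUSG00000032496, chromosome 9, 111019271 to 111042767) encodes the iron-binding protein lactoferrin. It had 4, 0, 1, 0 and 5 counts in the DIO livers, 23, 10, 1372 and 0 counts in the GB-IL livers and 5, 4, 3, 3 and 512 counts in the RYGB livers. GB-IL liver 3 and RYGB liver 5 were 48.2 and 64.8 times the next liver of their groups in CPM. The log2 fold change of GB-IL against DIO was 7.12 ± 2.19 (SE, adjusted p = 0.0840, edgeR quasi-likelihood test), and without GB-IL liver 3 it was 2.42 ± 1.93 (adjusted p = 0.416, same test). Camp (ENSMUSG00000038357, chromosome 9, 109847379 to 109849617), which encodes the antimicrobial cathelicidin, had 1 count over all DIO livers, in DIO liver 5. It had 1, 6, 523 and 0 counts in the GB-IL livers and 0, 2, 2, 1 and 194 counts in the RYGB livers. With 1 DIO count, the ratio of the summed rates was 591 (interval 106 to 23403) in GB-IL and 162 (28.7 to 6420) in RYGB livers, and without GB-IL liver 3 the first was 10.7 (exact permutation p = 0.214). Over livers, the exact two-sided permutation test came to p = 0.0952 for the first and p = 0.0873 for the other. The smallest p such a test can give is 0.0159 with 4 livers against 5 and 0.00794 with 5 against 5.

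Mmp8 (ENSMUSG00000005800, chromosome 9, 7558456 to 7568485) encodes neutrophil collagenase. It had 1, 4, 2, 1 and 0 counts in the DIO livers, 44, 56, 192 and 0 counts in the GB-IL livers and 3, 1, 4, 5 and 62 counts in the RYGB livers. GB-IL livers 1, 2 and 3, at 2.31, 3.16 and 8.14 CPM, were all above the highest DIO liver at 0.197 CPM, and GB-IL liver 4 was at 0, which allows up to 0.111 CPM. Mmp8 rose in GB-IL against DIO by a log2 fold change of 5.28 ± 1.31 (SE, adjusted p = 0.0427, edgeR quasi-likelihood test).

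Mmp9 (ENSMUSG00000017737, chromosome 2, 164940780 to 164955850) encodes gelatinase B, which neutrophils store in gelatinase granules and which macrophages and other cells also make. It was at 0.890, 1.43, 0.712, 0.849 and 0.625 CPM in the DIO livers and at 10.9, 14.01, 7.63 and 0.553 CPM in the GB-IL livers. Here GB-IL liver 2, not liver 3, was the highest, and GB-IL liver 4 was again below every DIO liver. In the RYGB livers Mmp9 was at 1.15, 1.13, 1.09, 0.538 and 3.60 CPM. Mmp9 rose in GB-IL against DIO by a log2 fold change of 3.19 ± 0.69 (SE, adjusted p = 0.0310, edgeR quasi-likelihood test), the smallest adjusted p of the 7 tested genes.

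In RYGB against DIO livers none of the 7 tested genes passed the test, with adjusted p from 0.469 (Ngp) to 0.796 (Csf3r) by the edgeR quasi-likelihood test. DESeq2, voom and the edgeR exact test also called 0 of them, while 0.449%, 6.08% and 0.182% of all genes rose by these tests. At an unadjusted p under 0.05, 4 of the 7 were higher (Ngp, Ltf, S100a8 and S100a9), against 5.35% of all tested genes. Ngp and Ltf had been tested only because GB-IL livers and RYGB liver 5 were high, and with them and Mmp8 set aside the count was 2 of 4. The log2 fold changes of S100a8 and S100a9 were 2.55 ± 1.11 and 2.65 ± 1.09 (SE), and without RYGB liver 5 they were 0.54 ± 0.90 and 0.68 ± 0.86. Csf3r stood at a log2 fold change of 0.39 ± 0.38 and Mmp9 at 0.75 ± 0.65, and without RYGB liver 5 at 0.16 ± 0.38 and 0.12 ± 0.64. Between GB-IL and RYGB livers Mmp9 had the smallest adjusted p (0.0943, edgeR quasi-likelihood test), with a log2 fold change of 2.44 ± 0.66 (SE). For S100a8, S100a9, Mmp8 and Csf3r the differences between these groups were 2.55 ± 1.07, 2.53 ± 1.06, 2.58 ± 1.05 and 1.09 ± 0.39 (log2, SE), each with an unadjusted p under 0.05, so that 5 of the 7 genes were below it against 15.3% of all tested genes. DESeq2 and the edgeR exact test each called 1 of the 7 here, Mmp9, against 4.59% and 3.99% of all genes, and voom called 0 (0.779%). Without GB-IL liver 3 the unadjusted p stayed under 0.05 for Mmp9 (0.00378) but not for S100a8, S100a9, Mmp8 or Csf3r, whose differences were then 1.502 ± 1.07, 1.36 ± 1.04, 1.67 ± 1.09 and 0.63 ± 0.37 (edgeR quasi-likelihood test, unadjusted p = 0.181, 0.213, 0.147 and 0.107). Without RYGB liver 5 the differences of S100a8 and S100a9 were 4.54 ± 0.98 and 4.48 ± 0.96 (edgeR quasi-likelihood test, adjusted p = 0.0803 for both). Ngp and Ltf were at 1.71 ± 1.55 and 2.01 ± 1.58, and without GB-IL liver 3 the sign turned, to -2.01 ± 1.63 and -2.70 ± 1.68.

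**Figure D2:**
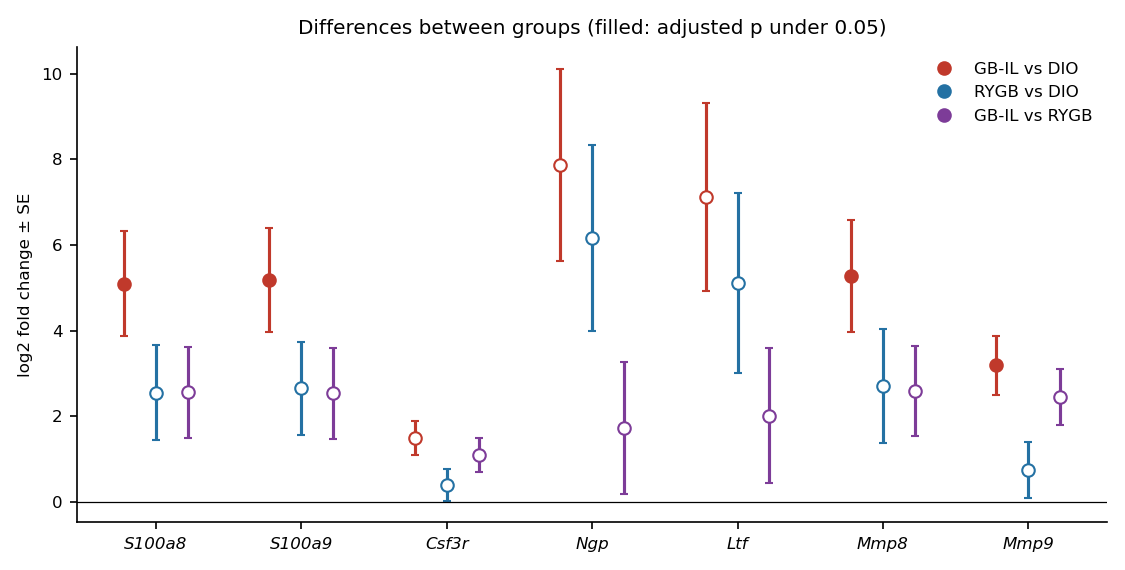
Log2 fold changes of the 7 genes that could be tested, with bars of 1 SE, for GB-IL against DIO, RYGB against DIO and GB-IL against RYGB livers. Filled points have an adjusted p under 0.05 (edgeR quasi-likelihood test), which only S100a8, S100a9, Mmp8 and Mmp9 reached, in GB-IL against DIO, and the bars of Ngp and Ltf are the longest.

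The calls were read against each liver in turn, as plotted by the liver left out. In the counts of the 7 below, Mmp8, Ngp and Ltf had passed the filter only through GB-IL livers and RYGB liver 5. A difference was therefore partly built into these counts. Without GB-IL liver 4 all 7 tested genes rose in GB-IL against DIO (15.4% of all genes did), with adjusted p from 0.000568 (Mmp9) to 0.0181 (Ltf) by the edgeR quasi-likelihood test. The same fit called 5 of the 7 higher in GB-IL than in RYGB livers, namely Mmp9, Csf3r, Mmp8, S100a8 and S100a9 (13.4% of all genes). With GB-IL liver 3 left out, Mmp9 was the only one of the 7 that passed (adjusted p = 0.0346 by the same test, 3.74% of all genes passing), while S100a8 and S100a9 stood at 0.0629 and 0.0589 with log2 fold changes of 4.05 ± 1.16 and 4.00 ± 1.12 (SE). Without any 1 of the 5 DIO livers, or without GB-IL liver 1 or GB-IL liver 2, 0 of the 7 and 0 of all genes passed, and 2134 to 2957 of all genes then had an unadjusted p under 0.05 by the same test. The log2 fold change of GB-IL against DIO stayed between 4.05 and 5.51 for S100a8, between 4.00 and 5.59 for S100a9, between 4.37 and 5.86 for Mmp8 and between 2.80 and 3.57 for Mmp9 over the fits without 1 liver in which the gene was tested. Other tests on all livers called 5 of the 7 by DESeq2 (7.77% of all genes), which gave Ngp and Ltf no p, 7 of the 7 by the edgeR exact test (7.24% of all genes), and 4 of the 7 by voom with sample weights (3.58% of all genes), where Mmp8 no longer passed (adjusted p = 0.0541) and Csf3r did (adjusted p = 0.0188). Without RYGB liver 5 Csf3r also passed (adjusted p = 0.0464), and without RYGB liver 1, 3 or 4 Mmp8 no longer did (adjusted p = 0.0530, 0.0532 and 0.0558, edgeR quasi-likelihood test). With both GB-IL liver 3 and RYGB liver 5 left out, a choice made after their levels had been seen, Mmp8, Ngp and Ltf fell below the filter and S100a8, S100a9 and Mmp9 rose (3.84% of all genes did), with adjusted p of 0.0263, 0.0242 and 0.0277 (edgeR quasi-likelihood test).

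**Figure D3:**
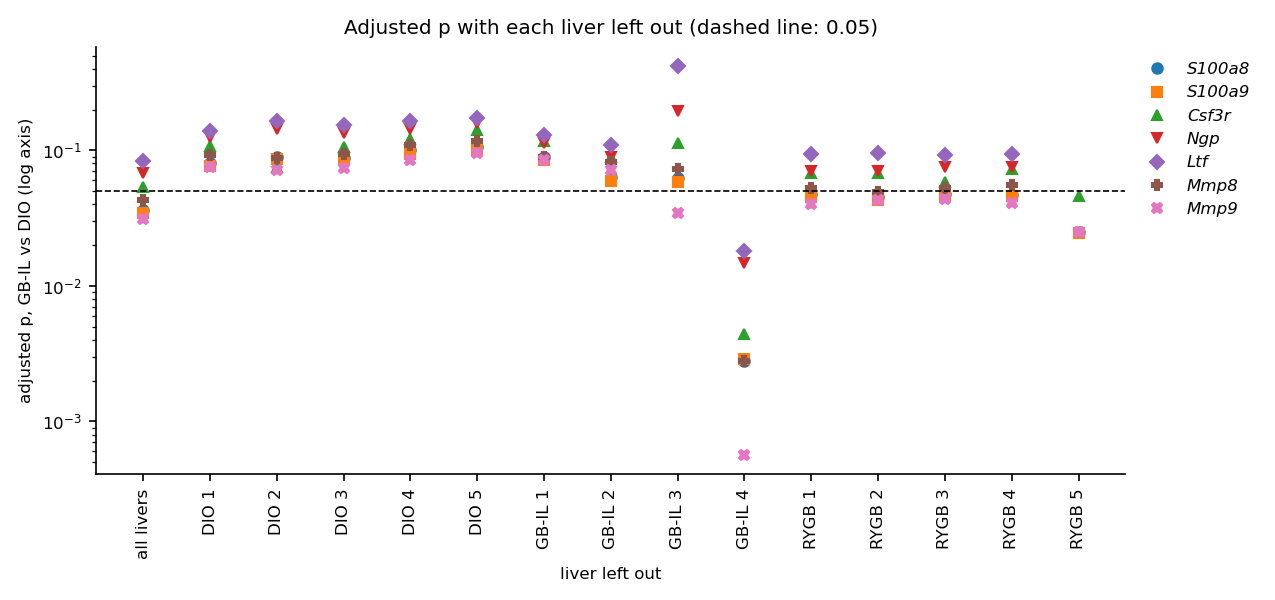
Adjusted p of GB-IL against DIO for each tested gene, on a log axis, with all livers and with each liver left out in turn, and a dashed line at 0.05. The points fall below the line without GB-IL liver 4 and rise above it without any DIO liver or without GB-IL liver 1 or 2. Without RYGB liver 5 only 4 genes were tested.

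GB-IL liver 3 was the highest of all 14 livers for 9 of the 10 genes, as it was for 8.65% of all tested genes, and RYGB liver 5 was second for 5 of them (Mpo, Elane, Ngp, Camp and Ltf). Of all tested genes, 0.695% had this order of the 2 livers. Both shares are of tested genes, and Mpo, Elane and Camp were not tested. Ngp and Ltf were tested only because GB-IL livers and RYGB liver 5 were high, so 0.695% is no measure for the 5 genes. The 5 are the primary and secondary granule genes other than Mmp8. To set granule transcripts against the alarmins within a library, a measure chosen after the levels had been seen, counts were divided by the summed counts of S100a8 and S100a9. Ngp, Camp and Ltf together came to 70.7 counts per 100 in GB-IL liver 3 (Wilson 95% interval 67.9 to 73.7, counting error only) and 95.5 in RYGB liver 5 (89.3 to 102). In GB-IL liver 1 they came to 6.07 (4.96 to 7.43) and in GB-IL liver 2 to 5.73 (4.10 to 8.01). Thus, the 4 livers with high S100a8 and S100a9 fell into a pair with many secondary granule transcripts per count of these genes and a pair with few. The other 10 livers lay between 0 and 23.5 on 34 to 112 S100a8 and S100a9 counts each. Squamous epithelium also makes S100a8 and S100a9, and squamous genes summed to 461 and 37.5 CPM in GB-IL livers 1 and 2. In GB-IL liver 3 and RYGB liver 5 they were at 1.08 and 0.507 CPM. The part of squamous cells in these ratios was not tested.

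Mpo and Elane together split these 4 livers the same way, with 21.8 counts per 100 (20.4 to 23.2) in GB-IL liver 3 and 16.7 (14.7 to 18.8) in RYGB liver 5. GB-IL liver 1 had 0 on 1647 S100a8 and S100a9 counts, with an upper bound of 0.233, and GB-IL liver 2 had 1.75 (0.973 to 3.15). The other 10 livers overlapped the first pair: they ran from 0 to 25.6, the highest being GB-IL liver 4 on 10 counts against 39 (12.97 to 50.7). Mmp9 ran the other way: it came to 3.24 per 100 (2.80 to 3.76) in GB-IL liver 3 and 5.91 (4.85 to 7.20) in RYGB liver 5, against 12.6 (10.9 to 14.6) in GB-IL liver 1 and 39.5 (34.1 to 45.7) in GB-IL liver 2. Csf3r stood at 8.00 and 12.8 per 100 in GB-IL liver 3 and RYGB liver 5 and at 11.8 and 23.9 in GB-IL livers 1 and 2. The 4 livers belong to 2 groups and were set apart by these very counts, so no test was made.

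**Figure D4:**
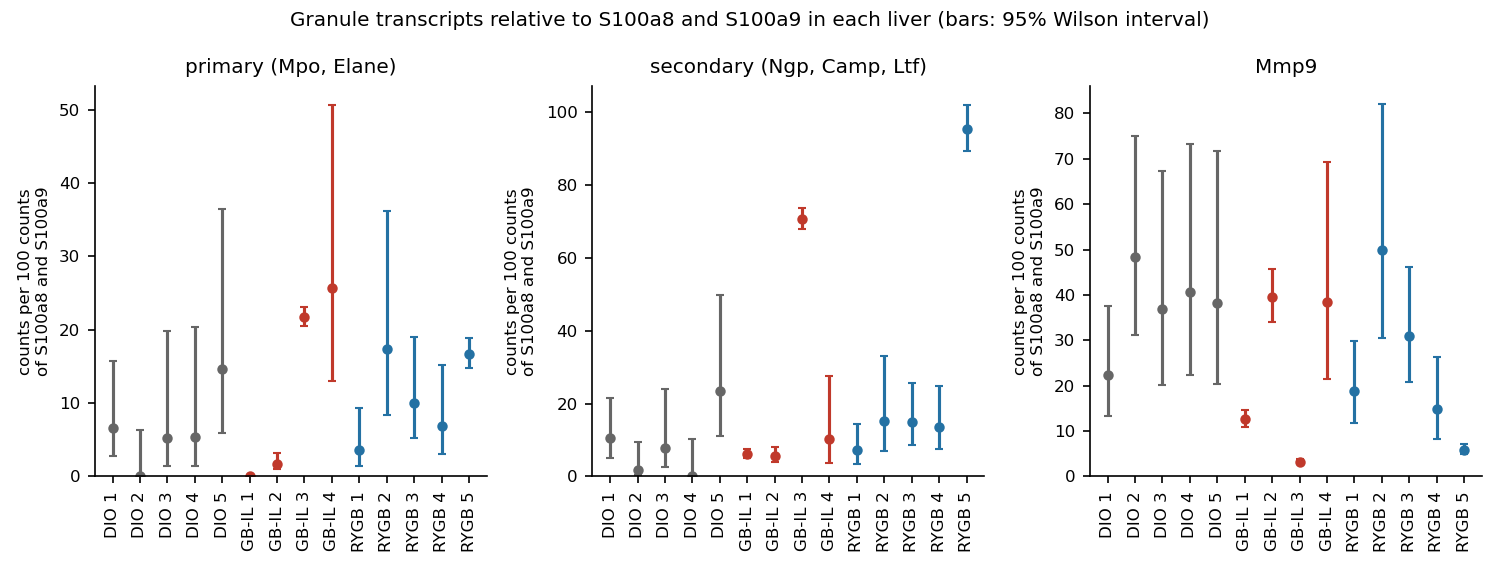
Counts of Mpo and Elane (left), of Ngp, Camp and Ltf (middle) and of Mmp9 (right) per 100 counts of S100a8 and S100a9 in each liver, with bars for the Wilson 95% interval of counting error. GB-IL liver 3 and RYGB liver 5 stand at 70.7 and 95.5 in the middle panel and have the lowest points in the right panel, while GB-IL livers 1 and 2 are near 6 in the middle panel.

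Levels between genes were compared per kb of exon. In DIO livers S100a9 had the highest mean of the 10 genes at 2.93 CPM per kb, followed by S100a8 at 1.42, Csf3r at 1.02 and Mmp9 at 0.254, and the 6 others were at 0.0747 or less. The DIO livers ranged from 1.75 to 4.61 for S100a9, from 0.900 to 2.26 for S100a8 and from 0.733 to 1.61 for Csf3r, so these 3 genes overlapped their neighbours in the order, while Mmp9, from 0.177 to 0.403, lay below every DIO value of Csf3r and above those of the 6 others, the highest of which was 0.171. In GB-IL liver 2 the order was S100a9, S100a8, Mmp9 and Csf3r at 40.8, 20.4, 3.96 and 2.35 CPM per kb. In GB-IL liver 3 it was S100a9, S100a8, Ngp and Camp at 285, 125, 70.6 and 29.3 CPM per kb, and Mmp9 came last at 2.16. RYGB liver 5 had the same first 8 genes in the same order as GB-IL liver 3, from S100a9 at 72.7 to Csf3r at 2.17 CPM per kb.

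Over the 14 livers, the log2 levels of S100a8 and S100a9 had a Pearson r of 0.99, those of Mpo and Elane 0.99, those of Ngp and Ltf 0.98, and those of Mpo and Mmp9 0.46. These are descriptions of livers that share groups and scaling, and they carry no test. Without GB-IL liver 3 and RYGB liver 5 the r stayed at 0.99 for S100a8 and S100a9 and at 0.90 for Ngp and Ltf, and stood at 0.62 for Mpo and Elane and at -0.05 for S100a8 and Mpo, on 0 to 6 counts of Mpo or Elane per liver. Outside the 10 genes, the gene most like S100a8 and S100a9 was Cxcr2, the neutrophil chemokine receptor (r = 0.96 and 0.98), and the gene most like Ngp and Ltf was Cd177, a surface protein of neutrophils (r = 0.98 and 0.96). S100a8 was also most like Retnlg and F13a1 (r = 0.96 and 0.95), and S100a9 like F13a1 and Itgam (r = 0.96 for both). A2m stood second for Ngp and Ltf (r = 0.91 and 0.95) with -0.0035 and 0.17 when GB-IL liver 3 and RYGB liver 5 were left out, so its likeness rested on those 2 livers. After A2m came F13a1 for Ngp (r = 0.91) and Ly6c2 for Ltf (r = 0.89, and -0.04 without the 2 livers). Mmp9 was most like Chil3, a chitinase-like protein of myeloid cells, Igdcc4 and Csf2rb2 (r = 0.98, 0.97 and 0.97), Mmp8 most like Igdcc4, Cxcr2 and Ifitm6 (r = 0.96, 0.96 and 0.95), and Csf3r most like G6pdx, Irak3 and Dram1 (r = 0.95, 0.94 and 0.92).

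Other genes linked with neutrophils were read from lists, beside the 3.15% of all genes that rose in GB-IL against DIO livers. Some of these genes are also made by other cells, as stated below for Lcn2 and Cebpa. Which cells carried the transcripts was not tested. Of 17 further genes that mark neutrophils 7 were tested and 4 rose. They included Il1r2, the decoy receptor of interleukin-1, Retnlg, a secreted resistin-like protein of granulocytes, and Cxcr2, by log2 fold changes of 5.41 ± 1.23, 4.80 ± 1.20 and 1.64 ± 0.42 (SE; edgeR quasi-likelihood test, adjusted p = 0.0333, 0.0428 and 0.0489). Ly6g, the classical surface marker of mouse neutrophils, had 0 counts in every DIO liver, 2, 1, 15 and 0 counts in the GB-IL livers and 5 counts in RYGB liver 5. Of the other 11 granule genes 6 were tested and 3 rose, namely Lyz2 (lysozyme), Chil3 and Lcn2 (lipocalin 2, which hepatocytes also make), by 2.18 ± 0.40, 9.11 ± 1.77 and 6.30 ± 1.23 (log2, SE). Il1r2, Retnlg and Chil3 averaged 0.135, 0.288 and 0.0996 CPM in DIO livers, so largely livers of the other groups carried them past the filter. A difference was thus partly built into the counts of both lists. Ctsg, Ms4a3 and Fcnb, which belong with early granulocytes, had 0 counts in every DIO liver and 129, 66 and 71 counts in GB-IL liver 3 against 26, 12 and 19 in RYGB liver 5 and 0 to 2 in all others. Prtn3 (proteinase 3) did not keep to these 2 livers: it had 1444 counts in GB-IL liver 3 and 901 in RYGB liver 5, but also 402 in RYGB liver 2 and 237 in GB-IL liver 2.

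Of the 6 genes of the NADPH oxidase, the complex that makes superoxide, 3 rose, among them Ncf4 and Cyba (log2 fold changes 1.76 ± 0.40 and 1.87 ± 0.43, SE). Of 10 receptors for chemoattractants, adhesion and microbial patterns 6 rose, among them Clec4e, Clec4d and the formyl peptide receptor Fpr2 (4.66 ± 0.81, 5.54 ± 1.01 and 2.27 ± 0.44). Among 6 tested transcription factors of granulocytes Runx1 and Spi1 rose (2.18 ± 0.48 and 1.46 ± 0.35), and Cebpd was at 1.57 ± 0.55 with an adjusted p of 0.118 (edgeR quasi-likelihood test). Cebpe and Cebpa, factors of granulocytes of which the latter is also made by hepatocytes, had lower means in GB-IL than in DIO livers (4.87 against 10.4 CPM and 193 against 348 CPM), with log2 fold changes of -1.08 ± 0.65 and -0.85 ± 0.33 (adjusted p = 0.315 and 0.149, edgeR quasi-likelihood test). The DIO livers, with Cebpe at 10.4 CPM, together held 7, 7 and 1 counts of Mpo, Elane and Camp. Which cells carried Cebpe was not tested. The summed level of the list of transcription factors ran from 266 to 403 CPM in GB-IL and from 402 to 492 CPM in DIO livers. Most of that sum is Cebpa, so it says little of the other factors. Of the ligands, 9 were listed, 3 could be tested, and Il1b, which encodes interleukin-1 beta, rose (2.54 ± 0.45), while the chemokines Cxcl1 and Ppbp stood at 1.03 ± 0.84 and 0.40 ± 1.13. Among the receptors of S100a8 and S100a9, the co-receptor Cd14 and Ager rose (5.22 ± 0.82 and 3.33 ± 0.82) and Tlr4 was at 0.43 ± 0.34, with 2 of 4 passing. Clec4e, Clec4d and Ager averaged 0.114, 0.249 and 0.315 CPM in DIO livers, so a difference was partly built into the counts of their lists too. Of 9 tested inhibitors of granule proteases Slpi, Serpina3n and Timp2 rose (4.70 ± 0.83, 2.37 ± 0.54 and 1.20 ± 0.28), and of 8 tested other S100 genes S100a6 and S100a11 rose (2.95 ± 0.54 and 2.08 ± 0.48), with S100a4 at 2.27 ± 0.60 and an adjusted p of 0.0523 (edgeR quasi-likelihood test). In RYGB against DIO livers 0 genes of these lists passed.

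Genes of other cells moved with the 10 genes in some livers. S100a8 and S100a9 are also known in squamous epithelium, and 9 squamous genes, led by Krt4 and Krt13, summed to 461 CPM of the total count in GB-IL liver 1, the liver with the second highest S100a8 and S100a9. GB-IL liver 2 had 37.5 CPM of them, and none had enough counts in enough livers for a test. The same list ran from 0 to 0.279 CPM in the DIO livers and from 0.140 to 0.507 CPM in the RYGB livers. Genes of the exocrine pancreas, led by Ctrb1 and Cela3b, summed to 1422 CPM in GB-IL liver 1 and to at most 1.61 CPM in any DIO liver. Genes of bile duct cells, led by Spp1 and Sox9, had a median of 222 CPM in GB-IL livers (60.2 to 297) and 39.4 CPM in DIO livers (32.2 to 64.5). Genes of Kupffer cells, led by Cd5l and Clec4f, reached 1411 CPM in GB-IL liver 3 against 279 to 519 CPM in DIO livers. In GB-IL liver 1 they stood at 268 CPM, below every DIO liver, and in RYGB livers 1 and 5 at 785 and 544 CPM. Monocyte and macrophage genes, led by Csf1r and Mrc1, ran from 165 to 424 CPM in GB-IL and from 131 to 214 CPM in DIO livers. In GB-IL against DIO livers 3 of 5 tested bile duct genes, 1 of 6 Kupffer cell genes, 1 of 9 monocyte and macrophage genes and the 1 tested pancreas gene rose, against 3.15% of all tested genes. The pancreas list stood at 2.44, 0.879 and 0.0383 CPM in GB-IL livers 2, 3 and 4, so its level was that of GB-IL liver 1. The summed level of the 10 genes ran from 5.36 to 11.04 CPM in DIO, from 6.74 to 460 CPM in GB-IL and from 8.27 to 161 CPM in RYGB livers. The part of these other cells in the levels of the 10 genes was not tested.

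**Figure D5:**
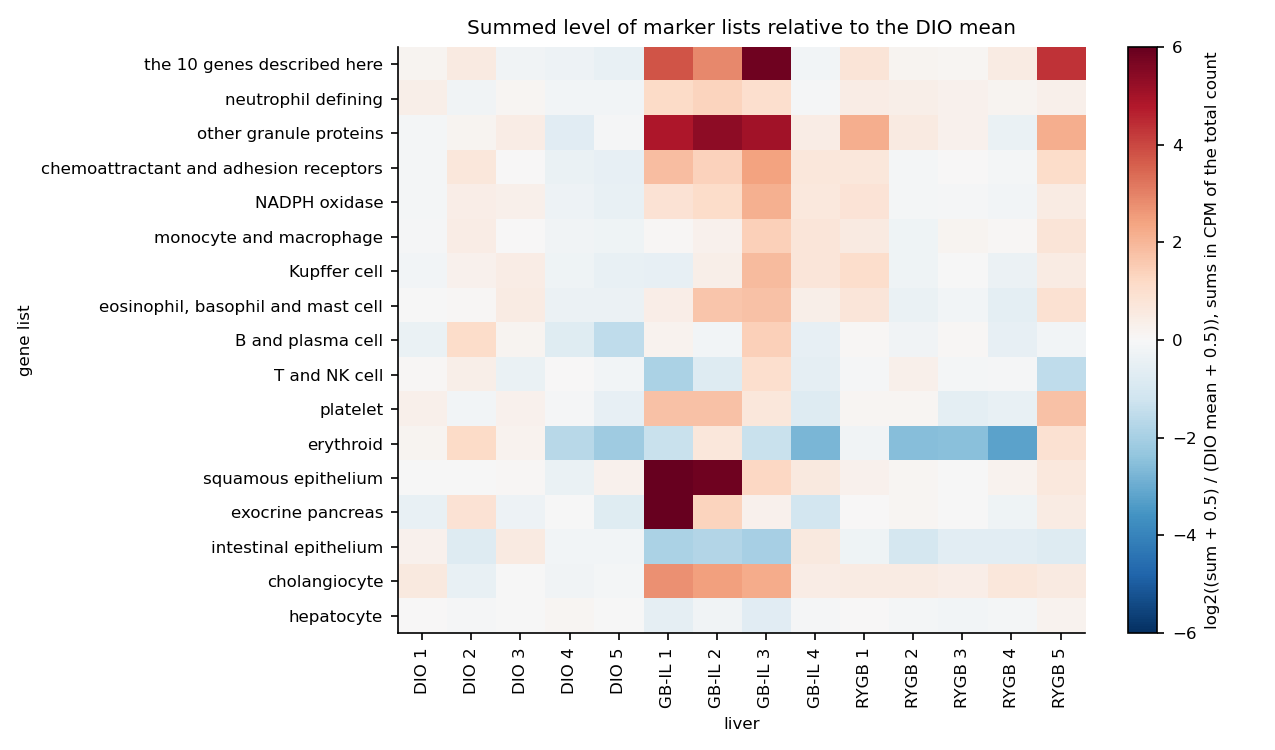
Summed level of the 10 genes and of lists of genes that mark neutrophils or other cells, in each liver, as log2 of the ratio to the DIO mean after 0.5 CPM was added to both. Red is above and blue below the DIO mean, and the colour scale ends at 6 in either direction. The 10 genes are high in GB-IL livers 1, 2 and 3 and RYGB liver 5, while the squamous list is high in GB-IL livers 1 and 2 and the pancreas list in GB-IL liver 1. The list of genes that define neutrophils is mostly Wfdc21, with a mean of 300.3 CPM in DIO, 558 CPM in GB-IL and 343 CPM in RYGB livers, so its sum says little of the other genes on it. In GB-IL livers the list of other granule proteins is mostly Lcn2, at a mean of 2741 CPM there and 34.7 CPM in DIO livers.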

How the data were processed

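RNA of 14 livers was amplified and sequenced on the Illumina HiSeq, and the authors mapped the reads to mm10 (TopHat 2) and obtained gene-level counts (HTSeq). What they deposited is the raw count of each gene in each liver, without normalization. Not given in the sources used here: tool versions, annotation, strand setting. Since 2 library kits are named in the labels but not tied to livers, kit and group cannot be told apart. Groups were taken from the sample titles. Where nothing states otherwise, each library is 1 mouse, and p-values measure the spread between these livers.

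Counts were tested in R 4.3.3 with edgeR 4.0.16: filterByExpr by group, TMM scaling, and a quasi-likelihood fit of 3 group means to all 14 livers, with Benjamini-Hochberg adjustment over all 14252 genes tested and a threshold of 0.05. The 3 genes removed by the filter are given as counts, with ratios of summed rates, Clopper-Pearson 95% intervals and exact permutation tests (scipy 1.17.1). No 2 libraries were identical, and no column was left unused. Fits were checked on simulated counts. Tried besides: scaling by RLE or upper quartile, DESeq2 1.42.0, limma 3.58.1 (voom with sample weights), the edgeR exact test, no filter, the compared groups alone, a replicate block and each liver left out. Gene positions and exon lengths are from GENCODE M21 (GRCm38), matched for 24701 of 25212 genes. Likeness was Pearson r of log2(CPM + 0.5) over genes averaging 1 CPM or more, the 3 highest being named. From each list the text names the 3 tested genes with the smallest p in GB-IL against DIO (1 such gene is not reported here), and from lists of other cells the 2 most abundant genes and those at 0. Other genes named (Ly6g, Ctsg, Ms4a3, Fcnb, Prtn3, Cebpe, Cebpa, Wfdc21) were picked after their values were seen. The genes and lists were chosen with earlier results of these data known.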

Additional observations from a re-analysis of the deposited data

Results flagged for a closer look

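In each group, the gap of the highest or lowest liver to its neighbour was set against the group's whole range (Dixon's ratio). Chance alone carries it past its 95% limit in about 1 in 20 groups only for independent, normally distributed values. Here the CPM were not logged and the genes moved together, so that share is no measure for these groups. Of 33 groups tested, 16 were past the limit, 9 through RYGB liver 5 and 5 through GB-IL liver 3. RYGB liver 5 was set apart for S100a8 (0.941 of the range), S100a9 (0.930), Mpo (0.973), Elane (0.973), Ngp (0.991), Camp (0.985), Ltf (0.990), Mmp8 (0.925) and Mmp9 (0.801). Csf3r was the gene for which it was not. GB-IL liver 3 was set apart for Mpo (0.992), Elane (0.975), Ngp (0.955), Camp (0.985) and Ltf (0.979), that is for the primary and secondary granule genes other than Mmp8. DIO liver 5 was set apart for Camp (1.0), on a single count. RYGB liver 2 was set apart for the log2 ratio of S100a8 to S100a9 (0.714), at -0.50 on 19 and 27 counts against -0.73 in the next liver. What sets these livers apart was not tested.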

How the results depend on the processing

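With all livers, 465 genes and 4 of the 10 were called in GB-IL against DIO, and 0 in the other comparisons. In GB-IL against DIO the genes called numbered 1292 by DESeq2, 1129 by the edgeR exact test, 1 with the replicate block and 0 with the 2 compared groups alone, and 0 to 3572 with 1 liver left out. Of the 10 genes, 7 were called by the exact test, 0 with the replicate block, 0 with the 2 groups alone and 0 to 7 with 1 liver left out. DESeq2 called 5 and gave Ngp and Ltf no p. As stated above, Mmp8, Ngp and Ltf passed the filter only through GB-IL livers and RYGB liver 5. In RYGB against DIO the genes called numbered 97 by DESeq2, 1690 by voom with sample weights, 44 by the exact test, 33 with the 2 groups alone and 0 to 5 with 1 liver left out, none of them among the 10. In GB-IL against RYGB they numbered 845 by DESeq2, 115 by voom, 681 by the exact test, 51 without the filter and 0 to 3120 with 1 liver left out, and of the 10 genes 1 was called by DESeq2, 1 by the exact test (both Mmp9) and 0 to 5 with 1 liver left out. RLE and upper quartile scaling called 4 and 5 of the 10 in GB-IL against DIO. Without GB-IL liver 3 the difference between GB-IL and RYGB livers turned for Ngp (log2 difference -2.01), Ltf (-2.70), Mpo (ratio 0.0726), Elane (0.256) and Camp (0.0661). With 1 liver left out these ran up to 2.13 (Ngp) and 2.42 (Ltf) without GB-IL liver 4, and to ratios of 84.8 (Mpo), 20.5 (Elane) and 110.5 (Camp) without RYGB liver 5. The difference in the log2 ratio of S100a8 to S100a9 ran from -0.40 to -0.060 for GB-IL against DIO, from -0.27 to 0.041 for RYGB against DIO (0.041 without DIO liver 3) and from -0.23 to 0.082 for GB-IL against RYGB (0.082 without GB-IL liver 4), and passed no test. The cause was not tested. The replicate numbers did not pair the livers: the deviations of same-numbered livers correlated from -0.38 to 0.38, over 0.1 in 2 of 13 pairs, against 17 of 52 other pairs, so the absence of calls under the block is not read as a weaker effect. Fewer than 10 counts per liver in most DIO and RYGB livers limit what can be said of Mpo, Elane, Camp, Ngp, Ltf and Mmp8 there.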

Other observations

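Lists of cells not described above ran as follows, as CPM of the total count and as genes passing the edgeR quasi-likelihood test in GB-IL against DIO livers. Eosinophil, basophil and mast cell genes, led by Ear2 and Siglecf, summed to 4.86 to 13.6 CPM in GB-IL and 2.79 to 5.39 CPM in DIO livers, and 0 of 1 tested passed. Platelet genes, led by Itga2b and Pf4, summed to 2.37 to 16.5 CPM in GB-IL and 3.07 to 5.59 CPM in DIO livers, with 0 of 2 tested passing. They were at 16.1 CPM in RYGB liver 5, the highest of its group, and at 7.51 CPM in GB-IL liver 3. B and plasma cell genes, led by Jchain and Cd79b, and T and NK cell genes, led by Cd4 and Nkg7, reached 21.5 and 10.5 CPM in GB-IL liver 3, the highest GB-IL liver for both. In RYGB liver 5 they were at 6.87 and 1.41 CPM. Of these lists 0 of 4 and 0 of 5 passed. Erythroid genes, led by Hbb-bs and Hba-a1, differed within every group, from 247 to 2432 CPM in DIO, from 164 to 1768 CPM in GB-IL and from 117 to 2052 CPM in RYGB livers. The highest RYGB liver was liver 5, and GB-IL liver 3 was at 441 CPM. Of the erythroid genes 1 of 6 was lower in GB-IL, against 0.112% of all tested genes. Hepatocyte genes, led by Alb and Apoa1, summed to a median of 100826 CPM in GB-IL and 126851 CPM in DIO livers, with 0 of 7 passing. Intestinal genes, led by Fabp2 and Lgals4, ran from 38.6 to 233 CPM in GB-IL and from 88.2 to 222 CPM in DIO livers, with 0 of 2 passing.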
